A study of Homo sapiens with 29 samples.

Results

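RNase P and RNase MRP are 2 RNA-protein enzymes of the nucleus and nucleolus. RNase P removes the 5′ leader of precursor transfer RNAs, and RNase MRP takes part in the maturation of ribosomal RNA, where it cuts the first internal spacer of the precursor. Each enzyme is built on its own RNA, RPPH1 for RNase P and RMRP for RNase MRP, and most of the protein subunits are found in both. The 10 genes described here are the RNA RMRP and 9 genes for protein subunits or their close relatives, which are RPP25, RPP25L, RPP30, RPP38, RPP40, POP1, POP4, POP5 and POP7. They are 10 of the 63677 features in each count table. The set was chosen by a measured value, the fall of RPP25 with CC-115 in C4-2 cells, which was among the largest of all genes. Every value of the 10 genes from CC-115 against Ctrl in C4-2 is therefore given as a description without a test.

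Total RNA was sequenced from 2 human prostate cancer cell lines, in 29 libraries and 10 groups. C4-2, a castration-resistant derivative of LNCaP grown in hormone-proficient medium, gave 8 groups of 3 libraries: Ctrl, NU7441, CC-115, CC-223, Enza, NU7441+Enza, CC-115+Enza and CC-223+Enza. The line 22Rv1, derived from a xenograft, gave 3 Control and 2 CC-115 libraries. Each compound was used at 1 µM for 24 h. The labels class NU7441 and CC-115 as inhibitors of DNA-PK, CC-223 as an inhibitor of TOR kinase and Enza as an antagonist of the androgen receptor. No label says whether replicates were separate cultures, so the p-values measure only the spread between these libraries, which may be technical.

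Libraries held 29580404 to 44864694 counts in C4-2 and 31606952 to 44912917 counts in 22Rv1. All 9 prostate markers reached 1 CPM (counts per 1000000 counts) in both lines, with summed levels of 3115 to 12020 CPM in C4-2 and 2235 to 2612 CPM in 22Rv1. The summed level of 7 stromal, immune and endothelial markers was 5.70 to 17.3 CPM in C4-2 and 2.498 to 12.7 CPM in 22Rv1, where CD3E was at 0 in every library. Enza replicate 1 and CC-115+Enza replicate 1 stood apart from their group mates, at root mean square log2 distances of 0.518 and 0.530. Next were both CC-115 libraries of 22Rv1, at 0.452, and 22Rv1 Control replicate 3, at 0.374. Calls from the Enza groups that were lost without Enza replicate 1 and CC-115+Enza replicate 1 are given with both values.

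The RNA subunits are shown first because they are the catalytic cores and because RMRP had more reads than any other member. RMRP is printed 5′ to 3′ from the GENCODE 29 transcripts on GRCh38 in DNA letters, all in lower case because no part of it was singled out. RMRP lies at chr9:35657751-35658018 on the minus strand of GRCh38, is 268 bases long and has 63.1% G and C. RPPH1 lies at chr14:20343075-20343407 on the minus strand, is 333 bases long and has 64.6% G and C.
RMRP: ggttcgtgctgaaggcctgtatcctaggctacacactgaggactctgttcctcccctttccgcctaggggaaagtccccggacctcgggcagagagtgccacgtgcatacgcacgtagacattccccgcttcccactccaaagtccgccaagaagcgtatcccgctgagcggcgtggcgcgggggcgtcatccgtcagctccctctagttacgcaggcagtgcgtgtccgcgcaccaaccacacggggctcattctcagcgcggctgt

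On hg19, the build of the count tables, RMRP is the feature at chr9:35657748-35658015, also 268 bases on the minus strand. RPPH1 has no feature matched by its identifier. A 638-base feature at chr14:20811207-20811844 encloses RPPH1 on the same strand in GENCODE 29 and is called here the feature over RPPH1. That feature shares 104 exon bases, 16.3% of its length, with PARP2 on the opposite strand.

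RPP25 encodes a small protein subunit that binds the RNA together with the POP7 protein. Its hg19 feature is a single exon of 3049 bases at chr15:75246757-75249805 on the minus strand. The 246 of these bases with the highest coordinates, 8.07% of the exon, are also exon of SCAMP5, a gene for a secretory carrier membrane protein. SCAMP5 lies at chr15:75249560-75313837 on the plus strand. Because RPP25 is on the minus strand, the shared bases are those transcribed first in its exon. In these tables, 0 of 564 features that lie wholly under exons of a gene on the opposite strand held a count in any of the 29 libraries, and neither did any of 633 lying under exons on their own strand. The counts therefore carry no strand, reads over the shared stretch were given to neither gene, and RPP25 reads cannot be told apart from unannotated antisense reads on the rest of its exon.

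RPP25 had few reads in C4-2 and almost none wherever CC-115 was given. Raw counts were 88, 88 and 84 in Ctrl, 90, 82 and 91 in NU7441, 50, 41 and 72 in CC-223, and 1, 4 and 1 in CC-115. With the antagonist they were 148, 125 and 107 in Enza, 123, 139 and 144 in NU7441+Enza, 93, 79 and 87 in CC-223+Enza, and 6, 4 and 6 in CC-115+Enza. These are bulk cultures, in which fewer cells with the transcript and less transcript per cell cannot be told apart. No C4-2 library with CC-115 came within the range of the libraries without it. On the scaled level, CPM after TMM scaling of library sizes, the order of group means was Enza 4.10 ± 0.81 (SD, n = 3), NU7441+Enza 3.60 ± 0.55, Ctrl 2.58 ± 0.22, NU7441 2.52 ± 0.23, CC-223+Enza 2.16 ± 0.09, CC-223 1.77 ± 0.42, CC-115+Enza 0.12 ± 0.03 and CC-115 0.05 ± 0.05. In that order the libraries of neighbouring groups overlapped, except between NU7441+Enza and Ctrl, between NU7441 and CC-223+Enza and between CC-223 and CC-115+Enza.

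**Figure D1:**
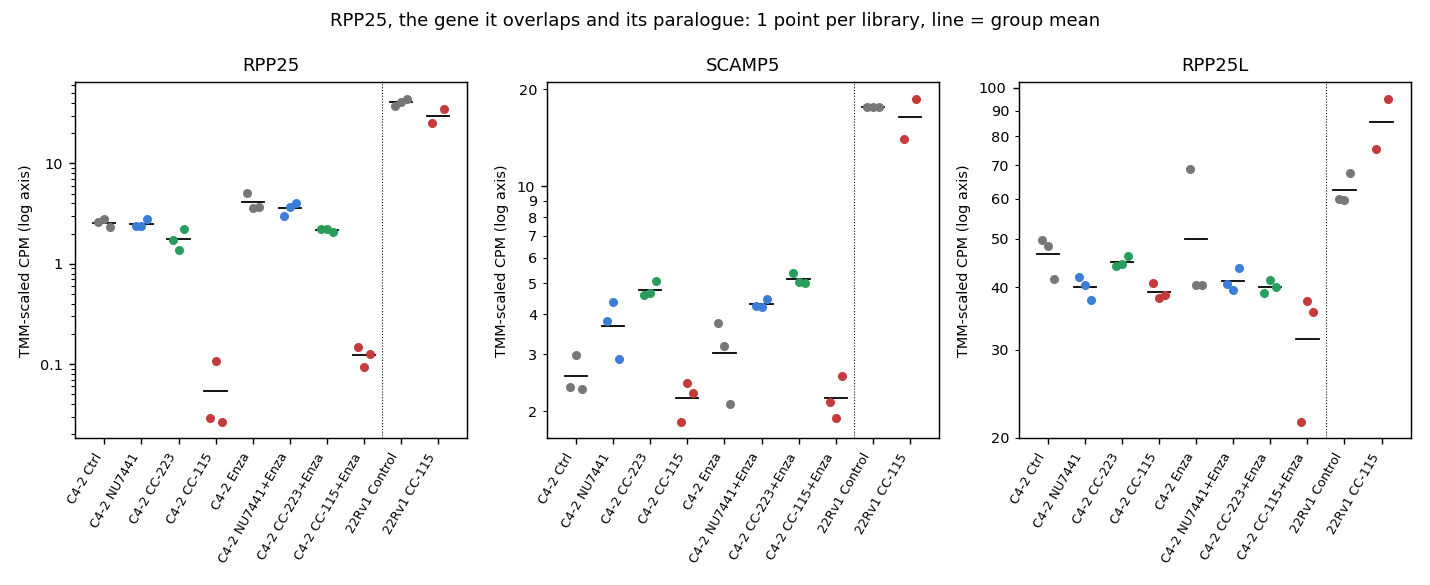
Scaled level (CPM, log axis) of RPP25, of SCAMP5, which overlaps it, and of the paralogue RPP25L, with 1 point per library and a line at each group mean. The dotted line separates C4-2 from 22Rv1, which were scaled separately. RPP25 is near 0.05 and 0.12 CPM in the 2 C4-2 groups with CC-115 and at 25.1 and 34.8 CPM in 22Rv1 with CC-115, and SCAMP5 has no such gap.

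The log2 fold change of RPP25 in CC-115 against Ctrl, the contrast behind its choice, was -5.46 ± 0.33 (SE). Summed over 3 libraries a side, this is 6 reads against 260, or a 46.7-fold lower scaled level with an exact 95% binomial interval of 21.2 to 128 that covers counting error only. CC-115+Enza against Enza used 6 libraries that are not in CC-115 against Ctrl. The members were chosen with earlier results of these data known, so this comparison is not an independent test of the choice. There RPP25 fell by 5.02 ± 0.26 on the log2 scale (adjusted p = 3.23e-14 by edgeR's quasi-likelihood test over all genes). In reads this was 16 against 380, a 33.1-fold fall with an interval of 20.1 to 58.5. The value was -4.98 without Enza replicate 1 and CC-115+Enza replicate 1, and it ran from -5.15 to -4.80 over the 6 fits that each omit 1 library.

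The other inhibitors moved RPP25 less. CC-223 against Ctrl lowered it by a log2 fold change of -0.54 ± 0.19 (adjusted p = 0.0409 by edgeR), a call that was lost without CC-223 replicate 1 or 2 and without Ctrl replicate 1 or 2, at adjusted p = 0.0757 to 0.153. CC-223+Enza against Enza lowered it by -0.92 ± 0.18 (adjusted p = 0.000391 by edgeR). NU7441 left it at -0.04 ± 0.18 against Ctrl, with a 95% interval of -0.41 to 0.34, and at a difference with an interval of -0.54 to 0.16 in NU7441+Enza against Enza. Enza alone raised it by 0.67 ± 0.18 (adjusted p = 0.0111 by edgeR), but by 0.46 with adjusted p = 0.11 when Enza replicate 1 was left out, and the call was also lost without Ctrl replicate 1 or 3, at adjusted p = 0.0508 and 0.0727.

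Direct contrasts between compounds placed CC-115 below both others. With the antagonist present, RPP25 was lower in CC-115+Enza than in NU7441+Enza by -4.83 ± 0.26 on the log2 scale (adjusted p = 8.49e-14 by edgeR). It was lower than in CC-223+Enza by -4.10 ± 0.28 (adjusted p = 5.71e-12 by edgeR). Without the antagonist the differences were -5.43 against NU7441 and -4.92 against CC-223, and these are descriptions because the CC-115 libraries chose the gene. The compounds were given at 1 dose and 1 time, so no order of potency can be read from these values.

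SCAMP5 differed from RPP25 in the size of its values with CC-115 and in its direction with CC-223. Its scaled levels were 2.39, 3.00 and 2.34 CPM in Ctrl, 1.85, 2.44 and 2.28 in CC-115 and 4.60, 4.64 and 5.08 in CC-223. SCAMP5 rose with CC-223 by 0.89 ± 0.18 (adjusted p = 0.000501 by edgeR), where RPP25 fell. In CC-115 against Ctrl it was at -0.23 ± 0.18, which did not pass the test (adjusted p = 0.316 by edgeR). In CC-115+Enza against Enza it fell by 0.45 ± 0.18 (adjusted p = 0.0323 by edgeR), with the libraries of both groups overlapping, and it was at -0.25 with adjusted p = 0.267 without the 2 libraries that stood apart. Group means of SCAMP5 were 2.57 ± 0.37 CPM in Ctrl, 3.69 ± 0.73 in NU7441, 4.77 ± 0.26 in CC-223 and 2.19 ± 0.31 in CC-115. NU7441 against Ctrl did not pass the test for SCAMP5 (adjusted p = 0.103 by edgeR). SCAMP5 was lower with CC-115 than with either other compound, both of which had higher means than Ctrl. The difference was -0.75 from NU7441 (adjusted p = 0.000966 by edgeR) and -1.12 from CC-223 (adjusted p = 1.01e-05). With the antagonist it was -0.96 from NU7441+Enza (adjusted p = 3.31e-05 by edgeR) and -1.22 from CC-223+Enza (adjusted p = 1.52e-06). Since reads over the shared 246 bases were counted for neither gene, these are the levels of the unshared parts.

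In 22Rv1, RPP25 had far more reads and a much smaller difference. Counts were 1674, 1853 and 1447 in Control and 1088 and 1003 in CC-115, and scaled levels were 37.0, 41.1 and 44.4 CPM against 25.1 and 34.8 CPM. Both CC-115 libraries were below all 3 Control libraries. The log2 fold change was -0.45 ± 0.18 and did not pass the test (adjusted p = 0.0762 by edgeR). Leaving out CC-115 replicate 2 gave -0.70 with adjusted p = 0.0245, and leaving out CC-115 replicate 1 gave -0.23 with adjusted p = 0.296. The change in 22Rv1 minus that in C4-2, fitted on both lines together, was 5.05 ± 0.38 on the log2 scale, given as a description.

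RPP25L encodes the paralogue of RPP25 and has 2 exon blocks at chr9:34610483-34612101 on the minus strand. Per kilobase of exon (RPKM, both lines scaled together), it was the more abundant of the pair in every group so scaled. In C4-2 Ctrl the levels were 35.8 ± 3.5 RPKM for RPP25L and 0.71 ± 0.06 for RPP25, and in 22Rv1 Control they were 67.9 ± 4.6 and 15.9 ± 1.3. RPP25 made up 1.95% ± 0.08 of the summed level of the pair in Ctrl, 1.39% ± 0.29 in CC-223, 2.93% ± 0.33 in Enza, 0.15% ± 0.08 in CC-115+Enza and 0.05% ± 0.04 in CC-115. In 22Rv1 it was 19.0% ± 0.81 in Control (n = 3) and 11.1% ± 0.64 in CC-115 (n = 2).

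RPP25L values with CC-115 were below 0 in C4-2 and above 0 in 22Rv1, and the calls among them did not hold in every fit. Scaled levels of RPP25L were 49.6, 48.3 and 41.6 CPM in Ctrl and 40.7, 38.0 and 38.5 CPM in CC-115, a log2 fold change of -0.25 ± 0.17. In Enza they were 68.7, 40.4 and 40.4 CPM and in CC-115+Enza 21.5, 37.5 and 35.6 CPM. The first replicate is the highest of the Enza group and the lowest of the CC-115+Enza group. RPP25L fell by 0.66 ± 0.17 in that comparison (adjusted p = 0.00136 by edgeR), but the value was -0.14 with adjusted p = 0.111 without these 2 libraries. In 22Rv1 the levels were 59.9, 59.8 and 67.7 CPM in Control and 75.3 and 95.2 CPM in CC-115, a rise of 0.45 ± 0.14 (adjusted p = 0.0374 by edgeR). That call was lost without CC-115 replicate 2, at 0.27 with adjusted p = 0.207, and without Control replicate 1 or 2, at adjusted p = 0.133 and 0.134.

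The RNA RMRP had 16474 ± 1070 RPKM in C4-2 CC-115 and 20819 ± 840 in C4-2 Ctrl, and 43982 ± 2718 in 22Rv1 Control and 55022 ± 4434 in 22Rv1 CC-115. It took 0.429% to 0.729% of all counts in C4-2 libraries and 1.00% to 1.23% in 22Rv1 libraries. RMRP is a short RNA, and how well the extraction and library steps recovered it was not tested.

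RMRP differed little among the C4-2 groups. Scaled levels were 6899, 6458 and 6524 CPM in Ctrl, 5762, 5153 and 5178 in CC-115, 4541, 6149 and 5730 in Enza and 5610, 6222 and 6425 in CC-115+Enza. All 3 CC-115 libraries were below all 3 Ctrl libraries, with a log2 fold change of -0.31 ± 0.12, while the Enza and CC-115+Enza libraries overlapped. CC-115+Enza against Enza gave 0.15 ± 0.12, which did not pass the test (adjusted p = 0.272 by edgeR, 95% interval -0.09 to 0.40). With genes of low counts filtered more strictly the value was 0.27 with adjusted p = 0.0195. CC-223 and NU7441 gave -0.02 ± 0.12 and 0.03 ± 0.12 against Ctrl, with 95% intervals of -0.26 to 0.22 and -0.21 to 0.27.

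In 22Rv1 the levels of RMRP were 10449, 9416 and 9906 CPM in Control and 12740 and 11768 CPM in CC-115. The rise was 0.30 ± 0.08 on the log2 scale (adjusted p = 0.0206 by edgeR) and both CC-115 libraries lay above all Control libraries. The call was lost with DESeq2, at 0.32 with adjusted p = 0.0696, and without CC-115 replicate 1, Control replicate 1 or Control replicate 2, at adjusted p = 0.0529 to 0.0792. The C4-2 side of the difference between lines is the contrast used for the choice. The difference between the 2 lines in the response of RMRP was 0.66 ± 0.11 (adjusted p = 0.000494 by edgeR). RPP25L and POP7 were also called higher in 22Rv1 and POP1 lower, which makes 4 of the 9 members other than RPP25, where 27.5% of all genes were called, 15.2% higher and 12.3% lower.

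The feature over RPPH1 rose in 22Rv1 as well. It had 24045, 20054 and 25218 CPM in Control and 35147 and 35108 CPM in CC-115, a log2 fold change of 0.60 ± 0.10 (adjusted p = 0.00282 by edgeR). In C4-2 it had 14067, 14010 and 11856 CPM in Ctrl and 16528, 15065 and 16726 CPM in CC-115. CC-115+Enza against Enza gave a 95% interval of -0.46 to 0.35 (adjusted p = 0.817 by edgeR), with 20991 CPM in Enza replicate 1 and 9203 CPM in CC-115+Enza replicate 1. Without these 2 libraries the feature was higher in CC-115+Enza, by 0.52 (adjusted p = 4.49e-06 by edgeR). Reads on this feature per RMRP read were 2.01 ± 0.18 in Ctrl and 3.01 ± 0.19 in CC-115 (n = 3 each), and 2.33 ± 0.21 in 22Rv1 Control and 2.87 ± 0.16 in 22Rv1 CC-115 (n = 3 and 2).

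**Figure D2:**
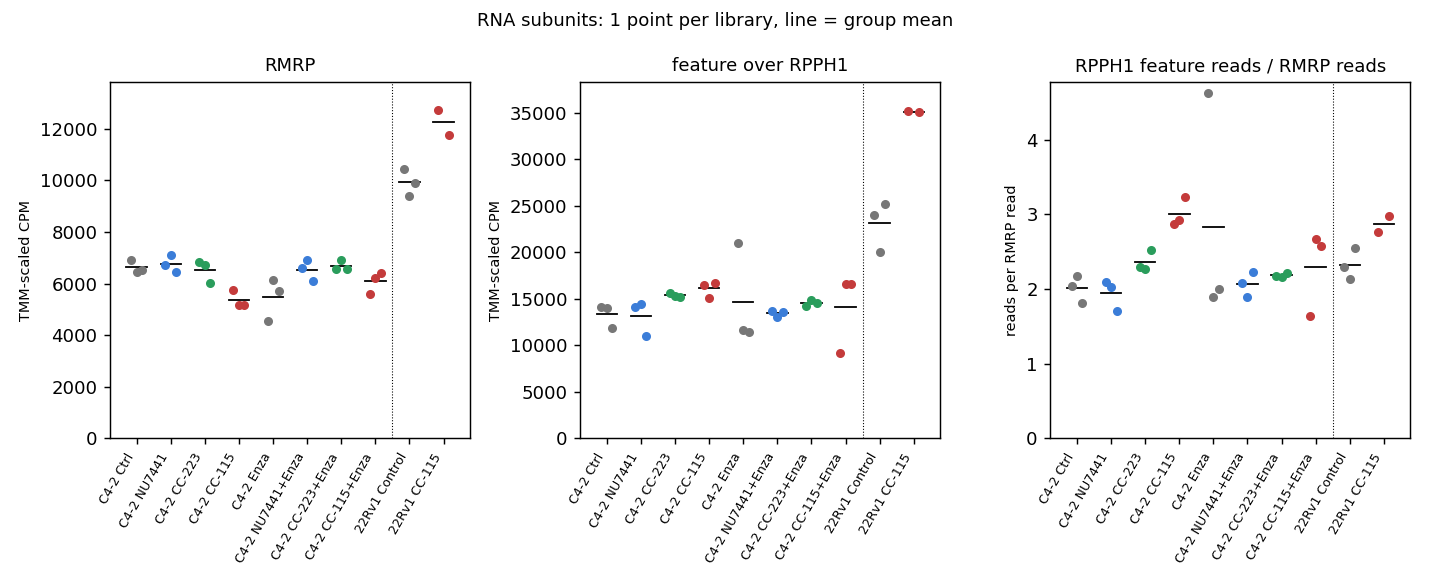
Scaled levels (CPM) of RMRP and of the feature over RPPH1, and reads on the latter per read on RMRP, with 1 point per library and a line at each group mean. C4-2 and 22Rv1, separated by the dotted line, were scaled separately. Both CC-115 libraries of 22Rv1 lie above the Control libraries in all 3 panels, and the Enza point near 4.62 is replicate 1.

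POP1, the largest protein subunit, binds the RNA of both enzymes. Its hg19 feature is at chr8:99129525-99172062 on the plus strand. In C4-2, POP1 was at 69.7, 59.6 and 60.1 CPM in Ctrl, 47.6, 44.5 and 46.5 in CC-115, 43.8, 45.6 and 43.3 in Enza and 22.2, 31.6 and 30.4 in CC-115+Enza. It was lower with the antagonist alone, by -0.51 ± 0.11 (adjusted p = 0.00115 by edgeR), and lower again with CC-115 added, by -0.66 ± 0.11 (adjusted p = 7.64e-06 by edgeR). The libraries of Ctrl and CC-115, of Ctrl and Enza, and of Enza and CC-115+Enza did not overlap. In 22Rv1 POP1 was at 31.2, 29.2 and 26.4 CPM in Control and 13.2 and 10.2 in CC-115, and at -1.30 ± 0.18 its fall was the largest of the 10 members there (adjusted p = 0.00127 by edgeR). In the difference between lines 3 members were below 0, and of these only POP1 was called, at -0.80 ± 0.18 (adjusted p = 0.00452 by edgeR).

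POP5 and RPP30 are subunits with counterparts in the RNase P of archaea. POP5, at chr12:121016567-121019201 on the minus strand, had 51.6, 49.8 and 48.2 CPM in Ctrl, 28.3, 28.9 and 27.8 in CC-115, 47.9, 50.4 and 43.7 in Enza and 18.8, 25.2 and 25.9 in CC-115+Enza. Neither pair of groups overlapped. POP5 fell by 1.02 ± 0.10 in CC-115+Enza against Enza (adjusted p = 2.69e-09 by edgeR) and by 1.12 ± 0.14 in 22Rv1 (adjusted p = 0.00094 by edgeR). The 22Rv1 libraries were at 49.7, 46.0 and 45.5 CPM in Control and 23.3 and 19.9 CPM in CC-115, and the difference between lines, -0.25 ± 0.14, did not pass the test (adjusted p = 0.2 by edgeR).

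RPP30, at chr10:92631473-92668312 on the plus strand, had 61.4, 56.2 and 51.8 CPM in Ctrl and 31.6, 26.6 and 30.5 in CC-115. Its fall was 0.93 ± 0.14 in CC-115+Enza against Enza (adjusted p = 1.69e-06 by edgeR). Levels in 22Rv1 were 19.6, 20.6 and 15.3 CPM in Control and 13.4 and 10.2 in CC-115, a fall of 0.65 ± 0.21 (adjusted p = 0.0371 by edgeR) that lost its call without CC-115 replicate 2, Control replicate 1 or Control replicate 2, at adjusted p = 0.126 to 0.177. Enza alone lowered RPP30 by -0.40 ± 0.13 (adjusted p = 0.0413 by edgeR), and by -0.28 with adjusted p = 0.00718 without the 2 libraries that stood apart. That call was lost when Enza replicate 1 or Ctrl replicate 1 alone was left out, at adjusted p = 0.158 and 0.151.

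POP7, which pairs with the RPP25 protein, is encoded at chr7:100303676-100305118 on the plus strand. It had 68.2, 68.3 and 62.1 CPM in Ctrl and 37.0, 35.9 and 37.4 in CC-115. In Enza it had 92.1, 59.6 and 57.1 CPM and in CC-115+Enza 20.4, 33.4 and 32.4 CPM, so that the groups were apart and replicate 1 of each was the extreme value. POP7 fell by 1.28 ± 0.15 in that comparison (adjusted p = 8.13e-08 by edgeR) and by 0.83 without those 2 libraries (adjusted p = 2.33e-12). In 22Rv1 it was at 84.1, 81.2 and 85.6 CPM in Control and 56.4 and 66.7 in CC-115, a fall of 0.44 ± 0.13 (adjusted p = 0.0261 by edgeR). Each library but CC-115 replicate 2, when left out, ended that call, at adjusted p = 0.0515 to 0.0994.

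POP4 and RPP38 bind RNA, and RPP38 belongs to the family of proteins that recognise kink-turns. POP4, at chr19:30094924-30108144 on the plus strand, was at 62.1 to 69.0 CPM in Ctrl and 40.4 to 42.6 in CC-115, fell by 0.86 ± 0.11 in CC-115+Enza against Enza (adjusted p = 3.55e-07 by edgeR) and fell by 0.55 ± 0.14 in 22Rv1 (adjusted p = 0.0135 by edgeR, 0.0781 without Control replicate 1). RPP38, at chr10:15139179-15181817 on the plus strand, was at 21.4 to 22.8 CPM in Ctrl and 12.7 to 13.9 in CC-115. It fell by 0.75 ± 0.10 in CC-115+Enza against Enza (adjusted p = 9.11e-07 by edgeR). In 22Rv1 the value of RPP38 was -0.43 ± 0.17, which did not pass (adjusted p = 0.0752 by edgeR). RPP38 shares 379 exon bases, 19.6% of its exons, with NMT2 and 140 with RPP38-DT, both on the opposite strand, so its reads are counted over the remainder. NMT2 gave a 95% interval of -0.07 to 0.38 in CC-115+Enza against Enza (adjusted p = 0.234 by edgeR), and 0.23 with adjusted p = 0.0234 without the 2 libraries that stood apart.

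RPP40, at chr6:4994966-5004297 on the minus strand, encodes a further protein subunit and had the smallest difference of all members in CC-115 against Ctrl, at -0.04 ± 0.17. Its level was 32.4 ± 2.0 CPM in Ctrl and 31.5 ± 2.4 CPM in CC-115 (SD, n = 3 each), and the libraries overlap. In Enza they were at 17.6, 29.4 and 26.8 CPM and in CC-115+Enza at 17.0, 33.9 and 30.1 CPM, with replicate 1 low in both groups. The log2 fold change there was 0.13 ± 0.17 (adjusted p = 0.52 by edgeR, 95% interval -0.22 to 0.49), and it ran from -0.02 to 0.38 as single libraries were left out, with adjusted p = 0.019 at the upper end, without CC-115+Enza replicate 1. In 22Rv1 RPP40 was at 8.58, 7.20 and 5.30 CPM in Control and 5.61 and 4.02 in CC-115, a difference of -0.54 ± 0.26 that did not pass (adjusted p = 0.128 by edgeR).

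**Figure D3:**
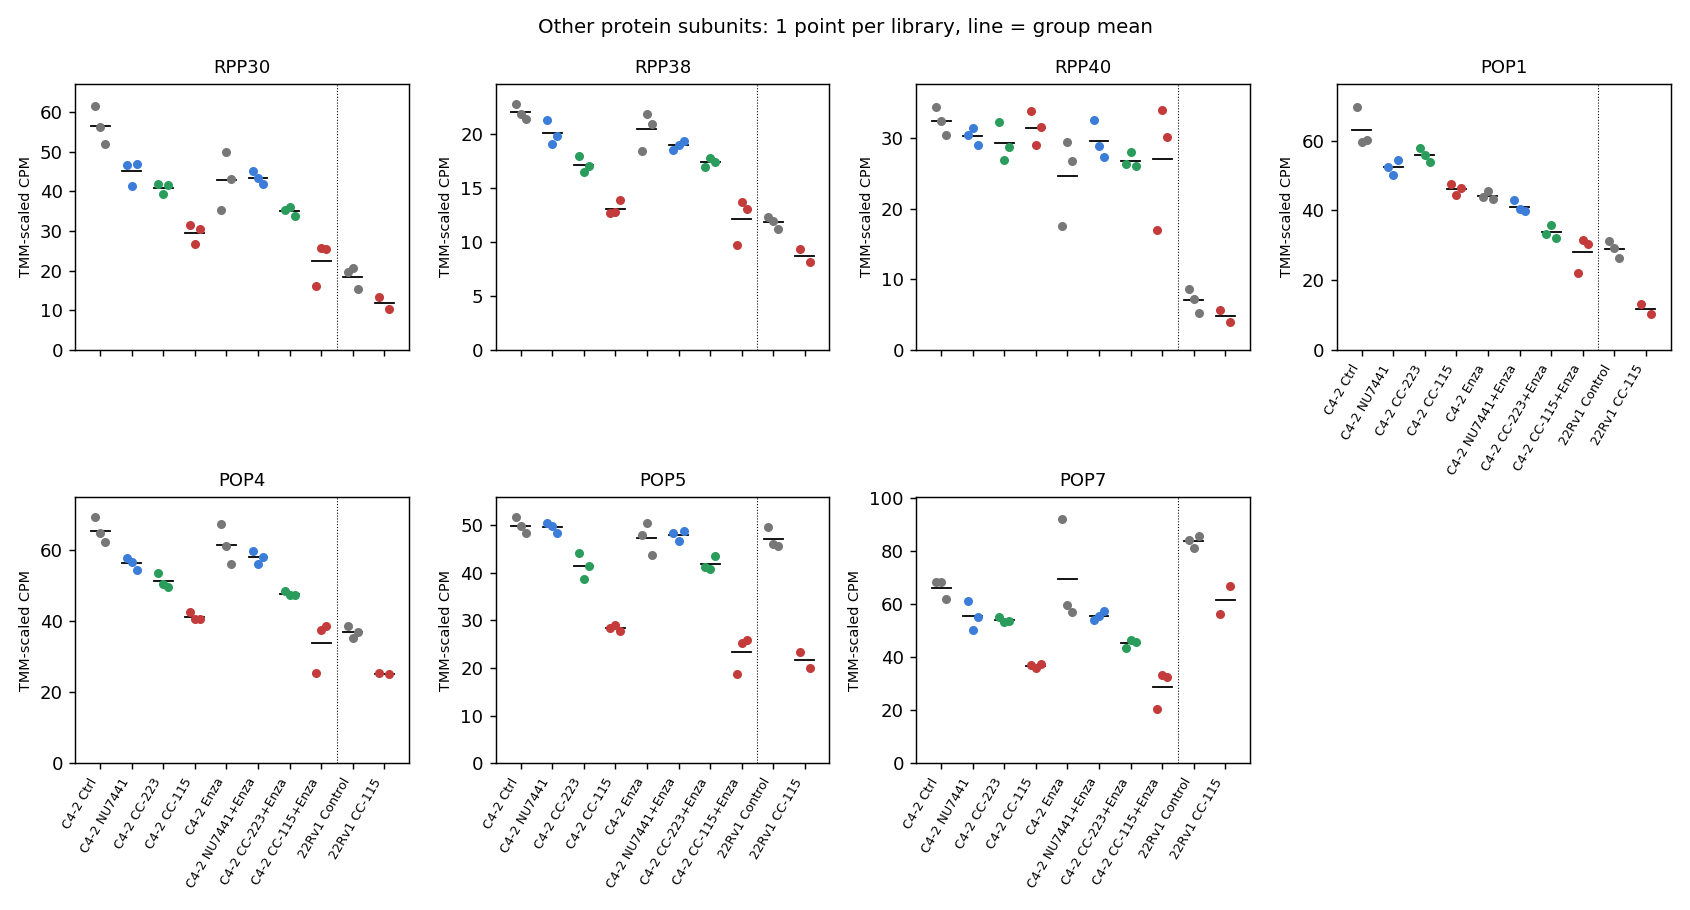
Scaled levels (CPM) of the 7 other protein subunits, with 1 point per library and a line at each group mean. C4-2 and 22Rv1, separated by the dotted line, were scaled separately. CC-115 libraries lie below Ctrl libraries in each panel except RPP40, and the low CC-115+Enza point in each panel is replicate 1. CC-115 against Ctrl is the contrast used for the choice, and the share of all genes with such a gap is not given here.

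As a set, 8 of the 10 members fell and none rose in CC-115+Enza against Enza, where 58.7% of all 22860 genes tested were called and 30.2% were called lower. The median log2 fold change was -0.81 over the members, -0.75 without RPP25 and 0.03 over all genes. Those that fell were RPP25, RPP25L, RPP30, RPP38, POP1, POP4, POP5 and POP7, and 7 of them were still called without the 2 libraries that stood apart, RPP25L being the exception. In CC-115 against Ctrl, the contrast used for the choice, the median over the members was -0.71.

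In 22Rv1, 5 members fell (RPP30, POP1, POP4, POP5 and POP7) and 2 rose (RPP25L and RMRP). Of the 19392 genes tested there, 40.9% were called, 20.7% lower and 20.2% higher. The median over the members was -0.49 against -0.02 over all genes. Leaving out 1 library at a time gave 2 to 7 calls, with 2 without Control replicate 1 and 3 without Control replicate 2.

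CC-223 lowered 5 members against Ctrl (RPP25, RPP30, RPP38, POP4 and POP5), where 23.9% of all genes were called and 10.9% were called lower. All 10 members were below 0 with a median of -0.28, against 0.07 over all genes. The lowering of RPP30 was -0.46 ± 0.13 (adjusted p = 0.0122 by edgeR). The count fell to 2 without Ctrl replicate 1 and to 3 without CC-223 replicate 2 or replicate 3. CC-223+Enza against Enza lowered 4 members (RPP25, POP1, POP4 and POP7), where 28% of all genes were called and 15% lower, with a median of -0.30 against 0.02. Without the 2 libraries that stood apart the count was 7, with RPP30, RPP38 and POP5 added, where 36.3% of all genes were called and 18.8% lower.

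NU7441 gave no call among the members by edgeR or DESeq2, either against Ctrl, where 3.39% of all genes were called and 1.11% were called lower, or in NU7441+Enza against Enza, where 0.381% were. At an unadjusted p under 0.05, 2 members passed in each. The share of all genes at that threshold is not given here, so these counts cannot be set against the background. The members ran from -0.33 to 0.03 on the log2 scale in NU7441 against Ctrl, with all libraries of NU7441 below all of Ctrl for 5 members, RPP30, RPP38, POP1, POP4 and POP7, as they were for 16.4% of all genes. When the 2 libraries that stood apart were left out of the fit, which are in neither group, 5 members were called lower in NU7441 against Ctrl, where 21.7% of all genes were called in that fit and 11.3% lower. When only these 6 libraries were fitted 4 members were called lower, where 13.8% of all genes were called and 7.58% lower.

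Between compounds at the same dose and time, CC-115 was lower than CC-223 for 6 tested members: RPP30, RPP38, POP1, POP4, POP5 and POP7. In that contrast 43.1% of all genes were called, 22.7% lower and 20.5% higher. RPP25 is described only there. With it counted, the number was 7 in the main fit and 3 to 5 when 1 library was left out. The calls of POP1 and POP4 were lost in 11 and 10 of 14 other fits, at adjusted p = 0.0512 to 0.28 and 0.0501 to 0.225, DESeq2 among them, and those of RPP30 and RPP38 in 2 and 3. POP5 showed the clearest difference, -0.55 ± 0.10 (adjusted p = 7.12e-05 by edgeR). RPP25L, RPP40 and RMRP did not differ beyond the test, with 95% intervals of -0.54 to 0.14, -0.25 to 0.46 and -0.53 to -0.04 (adjusted p = 0.353, 0.663 and 0.0545). CC-115 was also below NU7441 for 6 tested members, RPP30, RPP38, POP4, POP5, POP7 and RMRP, where 49% of all genes were called and 24.5% lower. RMRP, at adjusted p = 0.0204 by edgeR, lost that call without a filter on low counts, at adjusted p = 0.123, and without CC-115 replicate 2 or 3 or NU7441 replicate 2 or 3, at adjusted p = 0.0547 to 0.136. NU7441 and CC-223 differed for no member by edgeR or DESeq2, where 7.31% of all genes were called, 3.2% higher and 4.12% lower. At an unadjusted p under 0.05, 3 members passed, and the share of all genes at that threshold is not given here.

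With the antagonist present the contrasts of the same compounds gave 8 members lower in CC-115+Enza than in NU7441+Enza (57.9% of genes called, 29.1% lower) and 7 lower than in CC-223+Enza (50.4% called, 26.7% lower). The call of RPP25L against NU7441+Enza, -0.39 with adjusted p = 0.0487 by edgeR, was lost in 11 of 14 other fits, among them DESeq2 at adjusted p = 0.0682 and the fit without CC-115+Enza replicate 1, at -0.17 with adjusted p = 0.338. The call of POP1 against CC-223+Enza, -0.26 with adjusted p = 0.0387 by edgeR, was lost in 13 of 14, among them DESeq2 at adjusted p = 0.0571 and the fit without the 2 libraries that stood apart, at -0.12 with adjusted p = 0.155. RPP40 and RMRP were called in neither, but RPP40 was higher than in CC-223+Enza without those 2 libraries, by 0.26 with adjusted p = 0.00655. These contrasts share libraries with one another and with the comparisons above, so their values stand side by side.

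Enza alone raised RPP25 and lowered RPP30 and POP1, where 16.1% of all genes were called, 9.35% higher and 6.75% lower. Its count was 1 without Enza replicate 1 or without Ctrl replicate 1 and 5 without Enza replicate 2. The interaction, which asks whether the change with CC-115 differed with the antagonist present, was called for no member by edgeR, where 3.27% of all genes were called, 0.993% higher and 2.27% lower. By DESeq2, RMRP was called (0.48, adjusted p = 0.0155). At an unadjusted p under 0.05 by edgeR, 1 member passed, and the share of all genes at that threshold is not given here. The interaction holds CC-115 against Ctrl, the contrast used for the choice. In edgeR the interaction of RMRP was 0.46 ± 0.17 (adjusted p = 0.14), and 0.51 with adjusted p = 0.018 without CC-115+Enza replicate 1.

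**Figure D4:**
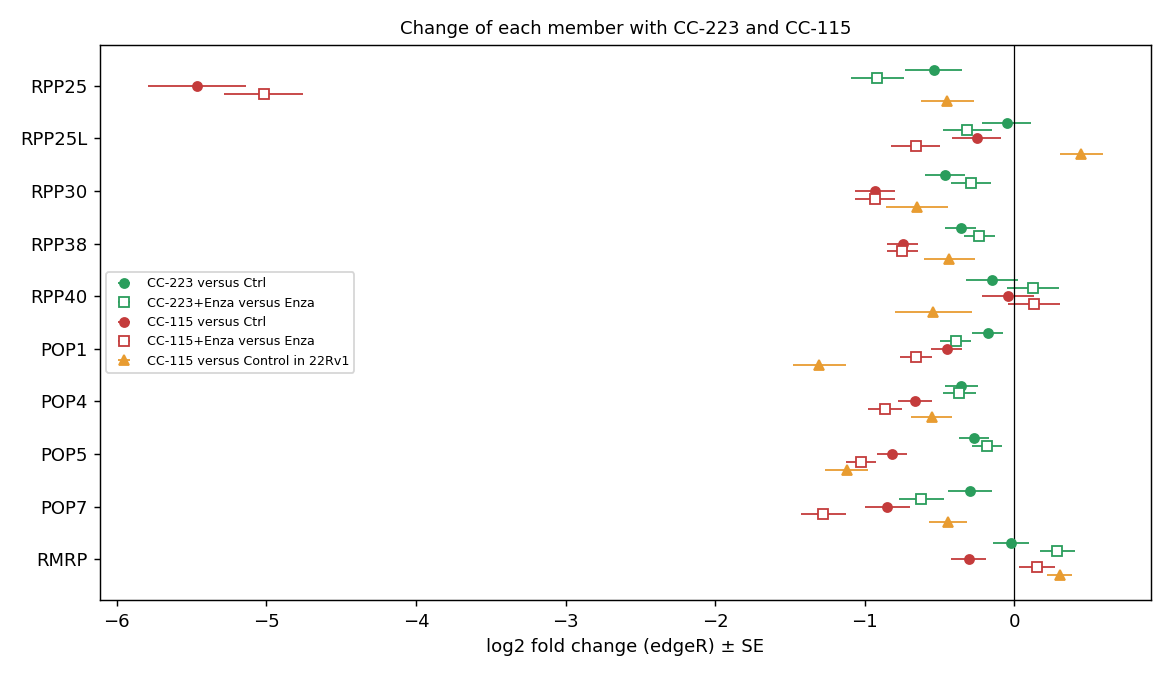
Log2 fold change of each of the 10 members with CC-223 and CC-115, as points with bars of ± 1 SE from edgeR. RPP25 stands at -5.46 and -5.02 with CC-115 in C4-2 and at -0.45 in 22Rv1, and the other members lie between -1.30 and 0.45.

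RPP14 and RPP21 are further protein parts of the enzyme. RPP14, a subunit of RNase P, was called lower in CC-223 against Ctrl at -0.55 ± 0.10 (adjusted p = 0.000213 by edgeR), in CC-115+Enza against Enza at -0.40 ± 0.10 (adjusted p = 0.00112) and in 22Rv1 at -0.53 ± 0.17 (adjusted p = 0.0379). RPP21, an RNase P subunit with levels near 1.59 CPM in Ctrl, was called in CC-115+Enza against Enza at -0.58 ± 0.18 (adjusted p = 0.00722 by edgeR), with libraries that overlap, and was at -0.26 with adjusted p = 0.249 without the 2 libraries that stood apart. It did not pass in CC-223 against Ctrl, at 0.017 (adjusted p = 0.963 by edgeR), or in 22Rv1, at -0.17 (adjusted p = 0.713), and was at -0.023 in CC-115 against Ctrl.

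Mitochondria use a separate RNase P made of 3 proteins with no RNA. All 3 fell in CC-115+Enza against Enza: TRMT10C, a transfer RNA methyltransferase, by 1.23 on the log2 scale (adjusted p = 1.69e-06 by edgeR), HSD17B10, a dehydrogenase, fell by 1.24 (adjusted p = 1.06e-06), and PRORP, the nuclease, fell by 0.55 (adjusted p = 0.0214). Without the 2 libraries that stood apart PRORP was at -0.34 with adjusted p = 0.208, and HSD17B10 fell by 0.69 (adjusted p = 1.09e-10 by edgeR). In 22Rv1 TRMT10C fell by 1.79 (adjusted p = 0.0114 by edgeR) and HSD17B10 by 0.53 (adjusted p = 0.0114), and PRORP did not pass at -0.46 (adjusted p = 0.225). In CC-223 against Ctrl TRMT10C and PRORP were called, at -0.63 and -0.56.

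Of 15 genes that trim, repair or splice transfer RNA, 8 fell and 2 rose in CC-115+Enza against Enza, with a median of -0.34, and 7 fell and 1 rose in 22Rv1, with a median of -0.41. CLP1, an RNA kinase tied to the splicing endonuclease, fell by 1.23 in the first (adjusted p = 4.99e-08 by edgeR) and by 0.82 in the second (adjusted p = 0.00779). TSEN15, a subunit of that endonuclease, fell by 0.54 (adjusted p = 0.000819 by edgeR) and by 1.35 (adjusted p = 0.00128). SSB, the La protein that binds the 3′ end of new polymerase III transcripts, fell by 0.66 (adjusted p = 0.00226 by edgeR) and by 1.29 (adjusted p = 0.00713). TSEN54, a further subunit of the same endonuclease, fell by 0.87 in the first comparison (adjusted p = 2.37e-05 by edgeR) and was at 0.13 in 22Rv1 (adjusted p = 0.545). THG1L, which adds a guanosine to histidine transfer RNA, rose by 0.49 (adjusted p = 0.00456 by edgeR) and by 1.03 (adjusted p = 0.00324).

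RNA polymerase III transcribes RMRP, RPPH1 and transfer RNAs, and its 13 listed subunits moved in both directions. In CC-115+Enza against Enza 7 fell and 3 rose, with a median of -0.29, and in 22Rv1 4 fell and 4 rose, with a median of 0.08. POLR3G fell by 2.01 (adjusted p = 2.02e-12 by edgeR) and by 2.22 in 22Rv1 (adjusted p = 0.00743), and POLR3K fell by 1.93 (adjusted p = 7.58e-13) and by 1.45 in 22Rv1 (adjusted p = 0.000505). CRCP rose by 1.17 (adjusted p = 3.08e-07 by edgeR) and by 1.32 (adjusted p = 0.00032), and POLR3C by 0.87 (adjusted p = 4.72e-06) and by 1.13 (adjusted p = 0.000458). POLR3B was called in both, at -0.37 (adjusted p = 0.00275 by edgeR) and -1.47 (adjusted p = 0.000633). POLR1D, a subunit shared with polymerase I, rose by 1.19 in 22Rv1 (adjusted p = 0.000308 by edgeR) and was at 0.25 in CC-115+Enza against Enza (adjusted p = 0.0812). POLR3G was also lower in CC-223 against Ctrl, at -1.34 (adjusted p = 7.54e-08 by edgeR).

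Among 19 factors that recruit or restrain the polymerase, 7 fell and 6 rose in CC-115+Enza against Enza and 5 fell and 5 rose in 22Rv1. The promoters of RMRP and RPPH1 are of the type that uses SNAPc and BRF2. SNAPC4, the largest SNAPc subunit, rose by 0.86 (adjusted p = 4.94e-06 by edgeR) and by 1.18 in 22Rv1 (adjusted p = 0.00266), and BRF2 by 0.41 (adjusted p = 0.00845) and by 1.10 (adjusted p = 0.00139). SNAPC1 fell by 0.87 in 22Rv1 (adjusted p = 0.0142 by edgeR) and was at -0.32 in CC-115+Enza against Enza (adjusted p = 0.0513). GTF3C6, a subunit of the factor that binds transfer RNA genes, fell by 1.23 (adjusted p = 7.68e-08 by edgeR) and by 1.04 in 22Rv1 (adjusted p = 0.00229). GTF3C1, the largest subunit of that factor, fell by 0.69 in CC-115+Enza against Enza (adjusted p = 2.52e-05 by edgeR) and was at -0.17 in 22Rv1 (adjusted p = 0.43). BDP1, a part of the initiation factor TFIIIB, rose by 0.72 in the first (adjusted p = 1.04e-06 by edgeR) and was at -0.14 in 22Rv1 (adjusted p = 0.645).

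Of 18 measured genes for cutting the first spacer and maturing 5.8S ribosomal RNA, 10 fell and 3 rose in CC-115+Enza against Enza, with a median of -0.43, and 8 fell and none rose in 22Rv1, with a median of -0.38. In CC-223 against Ctrl 8 fell and none rose, with a median of -0.39, where 10.9% of all genes were called lower and 12.9% higher. ERI1, an exonuclease that trims 5.8S ribosomal RNA, fell by 1.28 (adjusted p = 1.25e-08 by edgeR) and by 1.27 in 22Rv1 (adjusted p = 0.00858). SENP3, a SUMO protease of the nucleolus, fell by 1.17 (adjusted p = 9.23e-08 by edgeR) and stood at -0.03 in 22Rv1 (adjusted p = 0.872). TEX10 rose by 0.55 (adjusted p = 0.00097 by edgeR) and was at -0.34 in 22Rv1 (adjusted p = 0.226). MTREX, a helicase of the nuclear exosome, fell by 1.16 in 22Rv1 (adjusted p = 0.0131 by edgeR) and was at 0.087 in CC-115+Enza against Enza (adjusted p = 0.558). XRN2, an exonuclease, rose by 0.72 (adjusted p = 0.000146 by edgeR) and was at -0.38 in 22Rv1 (adjusted p = 0.0835). Without the 2 libraries that stood apart, CC-115+Enza against Enza gave other counts for these lists. Of the transfer RNA genes 7 fell and 4 rose, with a median of -0.15, of the polymerase III subunits 6 fell and 6 rose, with a median of -0.084, of its factors 6 fell and 7 rose, and of the ribosomal RNA genes 8 fell and 6 rose, with a median of 0.031. TSEN54 then fell by 0.43, GTF3C1 by 0.44 and RPP14 by 0.21, BRF2 rose by 0.69, and POLR1D rose by 0.48 (adjusted p = 1.49e-07 by edgeR). In that fit 29.9% of all genes were lower and 27.9% higher. The same background shares as for the members, 30.2% of genes lower and 28.5% higher in the first comparison and 20.7% and 20.2% in 22Rv1, apply to all these lists.

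The genes with patterns most like that of RPP25 over the 24 C4-2 libraries, among 13333 genes with an average log2 CPM of at least 1, were GASK1A, ADGRB2, RGL1, SDC1 and SH3BP1, with Pearson r on log2 CPM of 0.986, 0.985, 0.985, 0.984 and 0.983 and a median of 0.155 over all genes compared. The points share their libraries and the 2 CC-115 groups set most of the spread, so these are descriptions. SDC1, the cell surface proteoglycan syndecan-1, was at 86.7 ± 2.2 CPM in Ctrl, 22.0 ± 0.9 in CC-115, 117 ± 17 in Enza and 25.5 ± 4.3 in CC-115+Enza. GASK1A was at 2.39 ± 0.21, 0.27 ± 0.10, 4.17 ± 0.57 and 0.37 ± 0.08 CPM in the same groups. Among the members, r with RPP25 was highest for POP5, at 0.907, and lowest for RPP40, at -0.11. For RMRP the closest genes were TC2N, CD46, IL6ST, NPAT and PRRG1, from 0.870 for TC2N to 0.844 for PRRG1, with a median of 0.056 over all genes compared.

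Between the untreated lines, RPP30, RPP38, RPP40, POP1 and POP4 had lower mean levels per kilobase in 22Rv1 Control than in C4-2 Ctrl, and RPP25, RPP25L, POP5, POP7 and RMRP had higher ones. RPP40 was at 13.9 ± 0.9 RPKM in C4-2 Ctrl and 4.26 ± 1.04 in 22Rv1 Control, and POP7 at 56.4 ± 3.3 and 100.5 ± 3.0. Summed over 4 neuroendocrine markers, 22Rv1 libraries had 173 to 229 CPM and C4-2 libraries 4.08 to 8.49 CPM. The sum in 22Rv1 came mostly from SYP (47.6 to 61.5 CPM) and ENO2 (125 to 167 CPM). CHGA was at 0.28 to 1.01 CPM in 22Rv1 and 0.17 to 1.42 CPM in C4-2. INSM1 reached no more than 0.15 CPM in 22Rv1 and 0.035 CPM in C4-2. The part of such differences between lines in the members' levels was not tested.

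The RefSeq promoter windows (GRCh38.p14, around each start) were searched on both strands for an E-box, an ETS motif, an E2F motif and a TATA box in the 8 members that have one. The E-box CACGTG was found in 1 of 8 windows and in 7.43% of all 27305 windows. The ETS letters CCGGAAG were in 2 of 8 and 10.7% of all, and the TATA box TATAAA was in none of 8 and 11.9% of all. The E2F letters TTTGGCGC, TTTCGCGC, TTTCCCGC or TTTGCCGC were in none of 8 and 3.33% of all. The windows of RPP25, RPP25L, RPP30, RPP38, RPP40 and POP5 held no match, and a link between these letters and the falls was not tested. The stretches with a match are shown with the matched letters in capitals. They lie on the plus strand at chr7:100705970-100705999 (E-box) and chr7:100705991-100706020 (ETS) for POP7 and at chr19:29606291-29606320 for POP4.
POP7 E-box: cccgaggcgtaCACGTGtagatcccgtcac
POP7 ETS: tcccgtcacgcCCGGAAGtctcgcgtttct
POP4 ETS: atcagagagcgCCGGAAGcggtccgagaat
A match describes letters in a window and not a bound site. The RefSeq start of RPP25 lies 692 bases inside the upstream end of its exon in GENCODE 29. There the exon has the same length as in the count tables. The 246 bases shared with SCAMP5 lie upstream of that RefSeq start, in the longer exon of GENCODE 29.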

How the data were processed

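Total RNA was sequenced from the 29 libraries with a stranded kit that removes ribosomal RNA, per the labels' protocols. The authors deposited raw counts per gene for each line; the submitters' processing notes name STAR 2.5.2a, featureCounts 1.5.0-p3, DESeq2 1.14.1 and hg19, while no source used here gives the annotation release or the strand setting. Gene symbols were matched by identifier (52526 of 63677 features), and RMRP through its name in GENCODE 29.

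Counts were tested with edgeR 4.0.16 (R 4.3.3): genes kept by filterByExpr, TMM scaling, robust quasi-likelihood fits, Benjamini-Hochberg adjustment over all genes kept, and calls at an adjusted p under 0.05. All 24 C4-2 libraries entered 1 fit, and the 5 22Rv1 libraries another. C4-2 Ctrl, C4-2 CC-115 and 22Rv1 entered a joint fit for the difference between lines. SE is the log2 fold change over the square root of F. Scripts were tested on simulated counts. No 2 replicates agreed within sampling noise, the lowest chi-square per degree of freedom being 3.61. Binomial intervals are exact at 95%.

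The members and gene lists were chosen with earlier results of these data known. Named were all members, genes overlapping them, the further enzyme parts, from each list up to 2 called genes each with the largest rise and fall in CC-115+Enza against Enza and in 22Rv1, and the 5 genes most like RPP25 and RMRP. A gene that this rule names is not reported here. The alternatives were median-of-ratios size factors, DESeq2 1.42.0, no filter, a minimum count of 50, scaling without small and mitochondrial RNA, only the groups compared, a replicate block, leaving out Enza replicate 1 with CC-115+Enza replicate 1, and leaving out each library.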

Additional observations from a re-analysis of the deposited data

Results flagged for a closer look

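The change with CC-115 differed between 22Rv1 and C4-2 for 4 of the 9 members other than RPP25, by a test of the difference itself in the joint fit, in which 27.5% of all genes were called. RPP25L was at 0.75 ± 0.15 on the log2 scale (adjusted p = 0.00239 by edgeR), RMRP at 0.66 ± 0.11 (adjusted p = 0.000494) and POP7 at 0.46 ± 0.12 (adjusted p = 0.0133), all with the higher value in 22Rv1. POP1 was at -0.80 ± 0.18 (adjusted p = 0.00452 by edgeR), with the lower value in 22Rv1. The difference for POP7 lost its call without any filter on low counts, at 0.35 with adjusted p = 0.103, and without 22Rv1 CC-115 replicate 2, at 0.29 with adjusted p = 0.105. The C4-2 side of each difference is the contrast used to choose the members. Culture, line and table cannot be told apart here.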

How the results depend on the processing

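Counts of members called moved in these settings. NU7441 against Ctrl went from 0 to 1 with the stricter filter, 5 without the 2 libraries that stood apart and 4 with only the groups compared. Of all genes 3.39% were called in its main fit, 21.7% without the 2 libraries and 13.8% with only the groups compared. CC-223 against Ctrl went from 5 to 3 without a filter and 8 with only the groups compared, and to 2 to 5 with 1 library left out. Its share of all genes called was 23.9% in the main fit and 47.5% with only the groups compared. Enza against Ctrl went from 3 to 1 with only the groups compared and 1 to 5 with 1 library left out. There the share went from 16.1% in the main fit to 5.36% with only the groups compared. CC-223+Enza against Enza went from 4 to 7 without the 2 libraries, while the share went from 28% to 36.3%. NU7441 against CC-223 went from 0 to 1 with the stricter filter, 3 without the 2 libraries and 2 with only the groups compared. Of all genes 7.31% were called in its main fit, 25.2% without the 2 libraries and 21.3% with only the groups compared. The interaction went from 0 to 1 (RMRP) with DESeq2, the stricter filter and without the 2 libraries, and 0 to 1 with 1 library left out. Its share was 3.27% in the main fit and 6.17% without the 2 libraries. CC-115 against CC-223 went from 7 to 3 to 5 and 22Rv1 from 7 to 2 to 7 with 1 library left out. The counts of CC-115 against CC-223 include RPP25, which is described only there. Shares of all genes in the remaining settings are not given here, so those counts cannot be set against the background. The cause of these moves was not tested.

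Signs turned without the 2 libraries for RPP25L (-0.20, adjusted p = 0.0368 by edgeR) and POP7 (-0.18) in Enza against Ctrl, RPP25L (0.028) and RPP30 (-0.10) in NU7441+Enza against Enza, RPP40 in CC-223+Enza against Enza (-0.070) and in CC-115+Enza against NU7441+Enza (0.11). They turned without small and mitochondrial RNA for POP5 in NU7441+Enza against Enza (-0.0057) and RPP25L in CC-115 against NU7441 (0.012), and with the stricter filter for RMRP in CC-115+Enza against NU7441+Enza (0.020). With 1 library left out the ranges that crossed 0 were -0.029 to 0.040 for RMRP in NU7441 against Ctrl, -0.24 to 0.21 for RPP25L in Enza against Ctrl, -0.22 to 0.17 for POP7 in Enza against Ctrl, -0.43 to 0.022 for RPP25L in NU7441+Enza against Enza, -0.10 to 0.13 for RPP30 in NU7441+Enza against Enza, -0.057 to 0.043 for POP5 in NU7441+Enza against Enza, -0.025 to 0.38 for RPP40 in CC-115+Enza against Enza, -0.060 to 0.28 for RPP40 in CC-223+Enza against Enza, -0.030 to 0.032 for RPP25L in CC-115 against NU7441, -0.0099 to 0.14 for POP7 in NU7441 against CC-223, -0.27 to 0.12 for RPP40 in CC-115+Enza against NU7441+Enza and -0.15 to 0.26 for RPP40 in CC-115+Enza against CC-223+Enza. Over all values of single members, 1792 kept direction and side of the threshold, 104 lost and 62 gained a call, 34 turned sign and 8 moved.

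The replicate numbers did not pair the libraries (0 of 13 comparisons passed the check, with correlations of -0.70 to 0.64). With the number as a replicate block the count was 3 in CC-223 against Ctrl, and within 1.5 times of the main count elsewhere. Depth limits RPP25 in C4-2, where CC-115 libraries hold 1 to 4 reads.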
